A study of Mus musculus with 800 samples.

Results

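The genes described are Kcnb2, which encodes a Kv2 subunit, Kcns1, Kcns2 and Kcns3, which encode the silent Kv9 subunits, and Kcnv1, which encodes a silent Kv8 subunit. They are 5 of the 32285 genes in the deposited table of counts. The 5 genes were chosen on values measured in these same nuclei, namely their levels across cell classes, so those levels are given as a description without a test.

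Kv2 channels are delayed rectifiers, voltage-gated potassium channels that open slowly on depolarisation and help to repolarise the membrane during repeated firing. Each channel is made of 4 subunits around 1 pore. Kv2 subunits, such as the one encoded by Kcnb2, form working channels on their own. The silent, or modulatory, subunits of the Kv5, Kv6, Kv8 and Kv9 families do not: they reach the membrane only in a mixed channel with Kv2 subunits, whose voltage dependence and kinetics they change. Kv2 channels are abundant on the cell bodies and proximal dendrites of cortical neurons.

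Read counts were available for 800 single nuclei from C57Bl/6J mice injected in young adulthood, all labelled as nuclei of the anterior lateral motor cortex, the part of motor cortex that plans movement. All mice had received an adeno-associated virus with the PHP.eB capsid, which crosses into the mouse brain from the blood, at 5e11 vector genomes per mouse. The nuclei were sorted 3 to 4 weeks later for the yellow fluorescent reporter SYFP2 fused to histone H2B. There were 20 vectors with 40 nuclei each, and no nuclei without a vector. They used hSyn1 (a neuronal promoter), CMV (a viral promoter with broad activity), the Dlx-derived elements DLX2.0 and hI56i, known for activity in inhibitory neurons of the forebrain, and 16 enhancers known here by code only: AiE0390m, AiE0410m, AiE0078h, AiE0140h, AiE0475m, AiE0387m, AiE0401h, AiE0391h, AiE0452h, AiE0445h_3xC2, AiE0450h, AiE0447h, AiE0682h, AiE0600m, AiE0743m_3xC2 and AiE0779m. The nuclei were thus selected by reporter fluorescence, and a class is seen here only as far as some vector was active in it. Since animals are not named in the labels, each vector counts as 1 sample, and vectors are set side by side only as a description. Spread and p-values over vectors measure the spread between these samples, which may share animals.

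Nuclei with at least 1000 genes detected (698 of 800) were clustered without any potassium channel gene and named from marker genes. The named classes were 106 astrocyte-like, 50 oligodendrocyte-like, 161 SPN-like, 252 GABAergic-like and 108 glutamatergic-like nuclei, with 21 nuclei in an unnamed cluster. SPN stands for striatal projection neuron. The sum of 11 SPN markers was 8037 CPM (counts of a gene per 1000000 counts) in SPN-like nuclei and 447 CPM in GABAergic-like nuclei, so the tissue label did not match the markers of these 161 nuclei; the series design also names striatum as a sorted region. The median depth was 300958 counts in astrocyte-like, 297629 in oligodendrocyte-like, 241227 in SPN-like, 250223 in GABAergic-like and 246497 in glutamatergic-like nuclei. Counts are reads rather than molecules, and the Poisson and binomial intervals below cover counting error only.

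The 5 genes share the selectivity filter of a potassium channel, while the motif at its inner gate varies between the Kv2, Kv8 and Kv9 families, which is why the stretch that joins these parts is shown. It was read from the transcripts of the GENCODE M21 annotation on mm10 and runs 5′ to 3′ on the coding strand, within 1 coding exon of each gene. The first capitals are the codons of the selectivity filter, the signature that passes potassium ions. The last capitals are the 3 codons at the bend of the sixth membrane segment, the inner gate.

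Kcnb2: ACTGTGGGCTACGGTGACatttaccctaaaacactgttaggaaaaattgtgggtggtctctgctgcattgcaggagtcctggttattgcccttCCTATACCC
Kcns1: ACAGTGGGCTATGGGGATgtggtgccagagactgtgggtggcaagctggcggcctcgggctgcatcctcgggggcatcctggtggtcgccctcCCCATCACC
Kcns2: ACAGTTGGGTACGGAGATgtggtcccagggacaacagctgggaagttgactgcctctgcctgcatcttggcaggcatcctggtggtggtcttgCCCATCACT
Kcns3: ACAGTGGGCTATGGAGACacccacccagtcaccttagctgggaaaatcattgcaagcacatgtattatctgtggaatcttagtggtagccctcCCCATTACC
Kcnv1: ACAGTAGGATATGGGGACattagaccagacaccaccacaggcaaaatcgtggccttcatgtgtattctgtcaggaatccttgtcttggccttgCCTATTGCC

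The Kcnb2 stretch lies at chr1:15710046-15710147 on the plus strand. Kcns1 has it at chr2:164164767-164164868 on the minus strand. Kcns2 has it at chr15:34839612-34839713 on the plus strand. Kcns3 has it at chr12:11091488-11091589 on the minus strand. Kcnv1 has it at chr15:45109202-45109303 on the minus strand. All 5 genes carry the filter codons. The third codon of the gate motif encodes proline in Kcnb2, threonine in Kcns1, Kcns2 and Kcns3, and alanine in Kcnv1. Over the 102 bases, Kcnb2 matched the 4 silent genes at 52.9 to 58.8% of positions. The silent genes matched each other at 59.8 to 74.5%, with the highest value for Kcns1 and Kcns2. The annotation places 3 other genes over the 436497 bases of Kcnb2 and 1 over Kcns3, and the libraries do not keep the strand, so reads of overlapping genes cannot be told apart there.

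Reads of these genes were sparse. Of 800 nuclei, 43 had at least 1 count of Kcnb2, 21 of Kcns1, 51 of Kcns2, 113 of Kcns3 and 71 of Kcnv1. The pooled levels of Kcns3 and Kcnv1 were the most uneven between neuronal classes, those of Kcns2 were the closest to each other, and Kcns1 was below 10 CPM in every class.

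**Figure D1:**
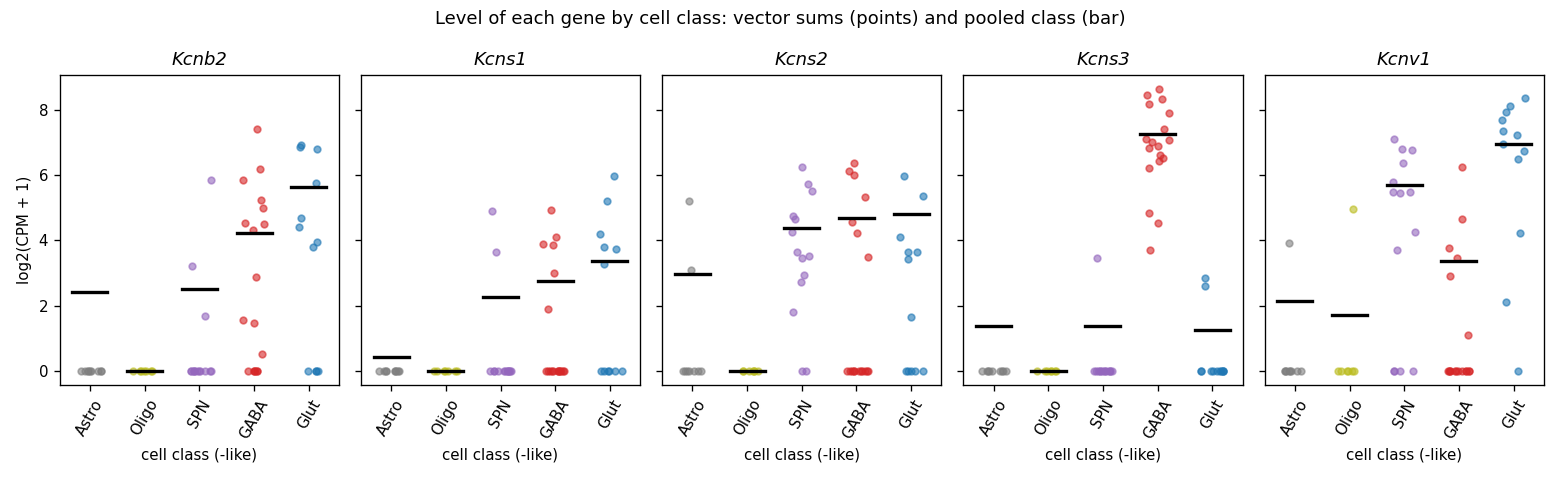
Level of each gene by cell class, as log2(CPM + 1). Points are vectors with at least 3 nuclei of the class and bars the pooled class, which also holds vectors with fewer nuclei. Every one of the 18 GABAergic-like vector sums of Kcns3 lies above 11 CPM, and Kcnv1 is highest in glutamatergic-like nuclei.

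Kcnb2, the pore-forming subunit, had its highest pooled level in glutamatergic-like nuclei. Its pooled level was 4.41 CPM in astrocyte-like nuclei (1 of 106 nuclei with a count), 4.70 CPM in SPN-like (5 of 161), 17.5 CPM in GABAergic-like (16 of 252) and 48.6 CPM in glutamatergic-like nuclei (19 of 108). It was found in 0 of 50 oligodendrocyte-like nuclei, which allows a share of nuclei with a count of up to 6% (3 of 50). The share of nuclei with a count was 6.35% (95% Clopper-Pearson interval 3.67 to 10.1%) of GABAergic-like and 17.6% (10.9 to 26.1%) of glutamatergic-like nuclei. With every nucleus thinned to 150000 counts, the shares were 5.86% of GABAergic-like and 16.8% of glutamatergic-like nuclei.

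The level of Kcnb2 varied widely between vectors. Over 18 vectors with at least 3 GABAergic-like nuclei the lowest was 0, the median 4.18 and the highest 170 CPM, and 6 vectors were at 0. Over 12 vectors with at least 3 glutamatergic-like nuclei the lowest was 0, the median 17.3 and the highest 119 CPM, and 4 were at 0. The groups overlapped. In the 12 vectors that held both classes, GABAergic-like nuclei averaged 26.5 ± 50.1 CPM and glutamatergic-like nuclei 39.1 ± 48.0 CPM (SD, n = 12), and the GABAergic-like level was lower in 6 vectors and higher in 4. A single hSyn1 nucleus with 540 counts held 39.2% of the glutamatergic-like reads, and without it the pooled level of that class was 29.97 CPM. The difference between these neighbouring classes was smaller than the spread between vectors.

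Kcnb2 was not spread evenly over the glutamatergic-like clusters. L2/3 IT-like nuclei, with markers of upper-layer, intracortically projecting neurons, had it in 11 of 34 nuclei at 45.3 CPM, from 6 of 11 vectors. In these nuclei, 1 nucleus held 35.7% of the counts, and the level without it was 30.2 CPM. A cluster led by Xirp2 and Supt7l, without a layer name, was higher, at 61.9 CPM in 5 of 27 nuclei (41.1 CPM without its top nucleus). L6 CT-like nuclei, with markers of deep neurons that project to the thalamus, had it in 0 of 29 nuclei from 10 vectors, which allows a share of up to 10.3%. A cluster of 11 nuclei led by Postn and Mtfr1 had 201 CPM of Kcnb2 in 2 nuclei, and 93.8% of these counts came from 1 nucleus.

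Kcns3, a silent Kv9 subunit, was almost wholly a gene of GABAergic-like nuclei. Of the 113 nuclei with a count, 109 were GABAergic-like. Its pooled level was 1.59 CPM in astrocyte-like, 1.59 in SPN-like, 151 in GABAergic-like (Poisson interval 148 to 154) and 1.38 CPM in glutamatergic-like nuclei, and it was found in 0 of 50 oligodendrocyte-like nuclei. The pooled GABAergic-like level was 110 times the glutamatergic-like one. A count was found in 43.3% of GABAergic-like nuclei (37.1 to 49.6%) and in 1.85% of glutamatergic-like nuclei (0.225 to 6.53%), and after thinning in 41.8% of GABAergic-like and 1.98% of glutamatergic-like nuclei.

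In each of the 3 contrasts between classes, 3 of the 5 genes passed the filter on low counts, and since the classes served to choose the genes, their vector sums are given without a call. Over 18 vectors, Kcns3 in GABAergic-like nuclei was lowest at 11.98 in AiE0387m, had a median of 123 and was highest at 396 CPM in CMV. CMV held only 3 GABAergic-like nuclei, and their sum also enters the next mean. In the 12 vectors with both GABAergic-like and glutamatergic-like nuclei, GABAergic-like nuclei averaged 171 ± 131 CPM and glutamatergic-like nuclei 0.944 ± 2.22 CPM (SD), with no overlap and the GABAergic-like sum higher in 12 of 12. In the 12 vectors with both SPN-like and GABAergic-like nuclei, Kcns3 had 0 counts in all SPN-like sums and averaged 115 ± 96.5 CPM in GABAergic-like sums. The only SPN-like nucleus with Kcns3 was from AiE0779m, a vector outside these 12. The GABAergic-like nucleus with the most counts, 1625, held 16.1% of the class, and the level without it was 128 CPM.

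Within the GABAergic-like class, Kcns3 was present in all 5 clusters. It was highest in a cluster led by Vip and Adarb2, with 295 CPM in 15 of 27 nuclei, or 266 CPM without the nucleus with the most counts. The cluster led by Crhbp and Grin3a had 181 CPM in 36 of 81 nuclei, and 108 CPM without 1 nucleus that held 42.7% of its counts. The cluster led by Pvalb had 143 CPM in 47 of 98 nuclei, and 117 CPM without its top nucleus, so the order of these 2 clusters turns on 1 nucleus. A cluster led by Pthlh had 53.8 CPM in 5 of 22 nuclei, and 17.4 CPM without its top nucleus. A cluster led by Nos1 and Chodl had 48.3 CPM in 6 of 24 nuclei, and 27.1 CPM without its top nucleus. The clusters were made without the 39 listed genes, Kcns3 among them, and no test was made between them.

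**Figure D2:**
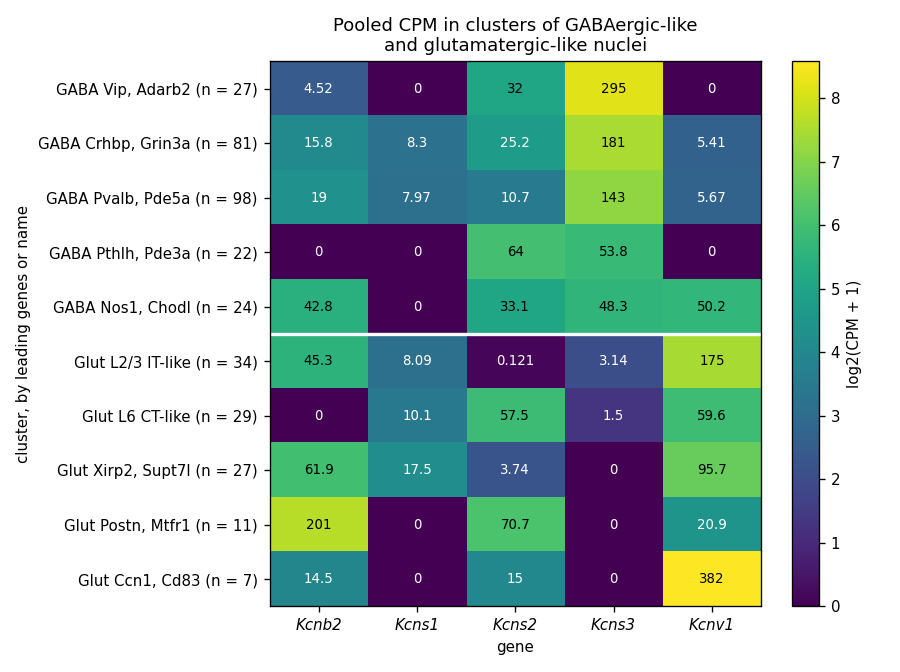
Pooled CPM (numbers; colour is log2(CPM + 1)) of the 5 genes in clusters of GABAergic-like and glutamatergic-like nuclei. Kcns3 is present in all 5 GABAergic-like clusters, at 48.3 to 295 CPM, and Kcnv1 in all 5 glutamatergic-like clusters, at 20.9 to 382 CPM.

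Kcns2, another Kv9 subunit, was at similar pooled levels in the neuronal classes. It stood at 6.80 CPM in astrocyte-like (4 of 106 nuclei), 19.98 in SPN-like (16 of 161), 24.5 in GABAergic-like (16 of 252) and 26.7 CPM in glutamatergic-like nuclei (13 of 108), with 0 of 50 oligodendrocyte-like nuclei. Over vectors, the median was 11.1 CPM in SPN-like, 0 in GABAergic-like and 5.98 CPM in glutamatergic-like nuclei, and the ranges overlapped. The order of the classes depended on pooling: in the 12 vectors with both SPN-like and GABAergic-like nuclei, Kcns2 averaged 23.1 ± 22.9 CPM in SPN-like and 14.3 ± 25.3 CPM in GABAergic-like nuclei (SD, n = 12), higher in SPN-like nuclei in 8 vectors and lower in 3, although the pooled GABAergic-like level was the higher one. The sums were concentrated in few nuclei: 1 nucleus held 42.8% of the glutamatergic-like counts, and the level without it was 15.5 CPM. Of the 4 astrocyte-like nuclei with Kcns2, 3 had over 6000 genes detected, against a class median of 1454. Without nuclei of over 6000 genes, Kcns2 stood at 4.78 CPM in astrocyte-like nuclei.

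Kcns2 also varied over the glutamatergic-like clusters, without a test. L2/3 IT-like nuclei had it in 1 of 34 nuclei, with a single count, at 0.121 CPM. L6 CT-like nuclei had it in 5 of 29 nuclei at 57.5 CPM, from 5 vectors, and 1 hSyn1 nucleus held 65.2% of those counts (20.8 CPM without it). These are few nuclei, and the share intervals were 0.0744 to 15.3% in L2/3 IT-like and 5.85 to 35.8% in L6 CT-like nuclei.

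Kcns1, the remaining Kv9 subunit, was the least detected of the 5 genes. Its pooled level was 0.337 CPM in astrocyte-like, 3.87 in SPN-like (2 of 161 nuclei), 5.73 in GABAergic-like (8 of 252) and 9.38 CPM in glutamatergic-like nuclei (10 of 108), with none in 50 oligodendrocyte-like nuclei. The 8 GABAergic-like nuclei all fell in the clusters led by Pvalb and by Crhbp, with 4 in each. Over vectors, 12 of 14 SPN-like, 12 of 18 GABAergic-like and 6 of 12 glutamatergic-like sums were at 0.

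Kcnv1, the silent Kv8 subunit, was highest in glutamatergic-like nuclei, followed by SPN-like nuclei. It stood at 3.40 CPM in astrocyte-like, 2.29 in oligodendrocyte-like, 50.8 in SPN-like (23 of 161 nuclei), 9.40 in GABAergic-like (8 of 252) and 122 CPM in glutamatergic-like nuclei (35 of 108). The share of nuclei with a count was 14.3% of SPN-like (9.28 to 20.7%), 3.17% of GABAergic-like (1.38 to 6.16%) and 32.4% of glutamatergic-like nuclei (23.7 to 42.1%). After thinning, the shares were 13.4% of SPN-like, 3.35% of GABAergic-like and 31.7% of glutamatergic-like nuclei. The GABAergic-like share was close to the 2.83% of astrocyte-like nuclei with a Kcnv1 count, while the SPN-like and glutamatergic-like shares lay above it. That 2.83% rests on 3 nuclei, and those from AiE0078h and AiE0391h had 10499 and 8201 genes detected, so it is no firm reference. Median depths were 300958 counts in astrocyte-like, 241227 in SPN-like, 250223 in GABAergic-like and 246497 in glutamatergic-like nuclei.

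Within vectors, the GABAergic-like level of Kcnv1 was lower than the glutamatergic-like one in 11 of 12 vectors, and both were 0 in CMV. GABAergic-like nuclei averaged 2.41 ± 4.55 CPM and glutamatergic-like nuclei 141 ± 107 CPM (SD, n = 12). The SPN-like level was higher than the GABAergic-like one in 8 of 12 vectors and lower in 1, at 46.3 ± 50.4 CPM in SPN-like and 9.65 ± 21.9 CPM in GABAergic-like nuclei (SD, n = 12), and these ranges overlapped. In hSyn1, the vector with most glutamatergic-like nuclei, 7 of 27 had Kcnv1, at 87.9 CPM. In CMV 0 of 18 had it, which allows a share of up to 16.7%.

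Kcnv1 varied over the clusters of a class as well, and no test was made between them. Among glutamatergic-like nuclei it reached 382 CPM in a cluster of 7 nuclei led by Ccn1, Cd83 and Egr2, where 5 of 7 had it. L2/3 IT-like nuclei had 175 CPM in 14 of 34 nuclei and L6 CT-like nuclei 59.6 CPM in 7 of 29. Of the 8 GABAergic-like nuclei with Kcnv1, 3 were in the Nos1 and Chodl cluster, whose 24 nuclei had 50.2 CPM (18.2 CPM without 1 nucleus that held 65.3% of the counts), while the other 4 clusters had 0 to 5.67 CPM.

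**Figure D3:**
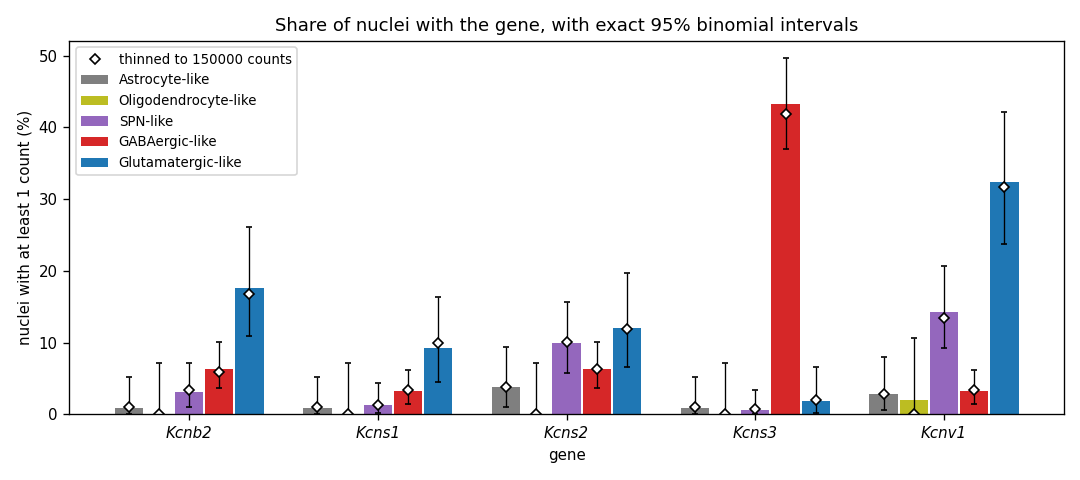
Share of nuclei with at least 1 count of each gene, in percent, with exact 95% binomial intervals; diamonds show the share after thinning each nucleus to 150000 counts. Kcns3 reaches 43.3% in GABAergic-like nuclei and is under 2% elsewhere, and Kcnv1 reaches 32.4% in glutamatergic-like nuclei.

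Reads of all 5 genes were scarce in non-neuronal nuclei, which were the astrocyte-like and oligodendrocyte-like ones together. In the 15 vectors with at least 3 non-neuronal and 3 neuronal nuclei, the sums are described without a call, since these classes also served to choose the genes. Kcns3 had no counts in any of the 15 non-neuronal sums and averaged 74.4 ± 73.9 CPM in neuronal sums. Kcnv1 averaged 3.92 ± 8.78 CPM in non-neuronal and 33.8 ± 31.2 CPM in neuronal sums, lower in 11 of 15 vectors and higher in 1. Kcns2 averaged 6.17 ± 15.7 CPM in non-neuronal and 17.6 ± 19.6 CPM in neuronal sums, lower in 11 vectors and higher in 3 (SD, n = 15 each). Median genes detected were 1328 in non-neuronal and 2931 in neuronal nuclei, and the part of this difference in the levels was not tested.

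Levels per kilobase of annotated exon allow different genes to be compared. Whether intronic reads were counted is not given in the sources used here, so these levels are approximate. In SPN-like nuclei Kcnv1 led the 5 genes at 11.1 CPM per kilobase, with Kcns2 at 3.58, Kcns1 at 1.43, Kcns3 at 0.504 and Kcnb2 at 0.310. In GABAergic-like nuclei Kcns3 led at 47.8 CPM per kilobase, with Kcns2 at 4.39, Kcns1 at 2.11, Kcnv1 at 2.05 and Kcnb2 at 1.16. In glutamatergic-like nuclei Kcnv1 led at 26.6 CPM per kilobase, with Kcns2 at 4.78, Kcns1 at 3.46, Kcnb2 at 3.21 and Kcns3 at 0.435. RNA of a silent subunit was thus above that of Kcnb2 per kilobase in all 3 neuronal classes.

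Since silent subunits work only with Kv2 subunits, their detection in the same nucleus as Kcnb2 was counted. Of 521 neuronal nuclei, 304 had none of the 4 silent genes, 191 had 1, 26 had 2 and none had 3. Kcnb2 was found in 40 neuronal nuclei, and 24 of these had at least 1 silent gene, a share of 60% (43.3 to 75.1%). Among the 481 neuronal nuclei without Kcnb2 the share was 40.1% (35.7 to 44.7%). With each nucleus thinned to 150000 counts, the shares were 58.3% of 36 nuclei with Kcnb2 (40.8 to 74.5%) and 39.7% of 453 without it (35.2 to 44.4%). The intervals overlapped in both cases. These shares pool the neuronal classes: 123 of 161 SPN-like, 122 of 252 GABAergic-like and 59 of 108 glutamatergic-like nuclei had no silent gene. Kcnb2 was found in 5 of the SPN-like, 16 of the GABAergic-like and 19 of the glutamatergic-like nuclei. The part of this class mix in the gap was not tested.

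Pairs of genes were counted within each class. In GABAergic-like nuclei Kcns3 was found in 7 of 16 nuclei with Kcnb2 (43.8%) and in 102 of 236 without it (43.2%). In glutamatergic-like nuclei Kcnv1 was found in 9 of 19 nuclei with Kcnb2 (47.4%, 24.4 to 71.1%) and in 26 of 89 without it (29.2%, 20.1 to 39.8%). Kcnv1 was not found in any of the 16 GABAergic-like nuclei with Kcnb2. It was found in only 8 of all 252 GABAergic-like nuclei, so 16 nuclei are too few to read this absence. The intervals of nuclei with and without Kcnb2 overlap, nuclei of 1 vector are not independent, and no test was made.

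Read from the silent gene, Kcnb2 was found in 6.42% of the 109 GABAergic-like nuclei with Kcns3 and in 6.35% of all GABAergic-like nuclei. It was found in 25.7% of the 35 glutamatergic-like nuclei with Kcnv1 and in 17.6% of all glutamatergic-like nuclei. A nucleus without a count may still express the gene, since most nuclei had few reads of any of them. Kcns2 and Kcnv1 were the silent pair most often found together, in 8 of 521 neuronal nuclei, where Kcns2 was found in 45 and Kcnv1 in 66. Whether 8 is more than these counts alone would give was not tested. Kcns3 was found in 112 neuronal nuclei and Kcnv1 in 66, mostly of different classes, and both were found in 3. Of the 8 GABAergic-like nuclei with Kcnv1, 3 had Kcns3, beside 109 of all 252 GABAergic-like nuclei.

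Contrasts within the GABAergic-like and SPN-like classes were tested over vectors by the quasi-likelihood test of edgeR at a threshold of 0.05 on Benjamini-Hochberg adjusted p-values, adjusted over every gene in the fit. The first set Pvalb-like against Sst-like nuclei, both large kinds of inhibitory neuron, in 13 vectors. Pvalb-like nuclei joined the clusters led by Pvalb (98 nuclei) and by Pthlh (22 nuclei). Sst-like nuclei joined those led by Crhbp and Grin3a (81 nuclei) and by Nos1 and Chodl (24 nuclei). Of the 5 genes only Kcns3 passed the filter on low counts. In this contrast 0.196% of 7666 genes were called higher and 0.209% lower, and none of the 5 genes was called by edgeR or by DESeq2 or had an unadjusted p under 0.05. Kcns3 averaged 130 ± 142 CPM in Pvalb-like nuclei and 109 ± 129 CPM in Sst-like nuclei (SD, n = 13). It was higher in Pvalb-like nuclei in 8 vectors and lower in 5, with a log2 fold change of 0.74 and a standard error of 1.01 (unadjusted p = 0.471, adjusted p = 1 by edgeR). The groups overlapped, with 1.08 to 552 CPM in Pvalb-like and 0 to 485 CPM in Sst-like nuclei. No difference in Kcns3 was detected, and the standard error exceeds the fold change. One AiE0401h nucleus held 39.1% of the Sst-like counts, and pooled over all nuclei Kcns3 stood at 126 CPM in Pvalb-like and 147 CPM in Sst-like nuclei. A count of Kcns3 was found in 52 of 120 Pvalb-like and 42 of 105 Sst-like nuclei. Kcnv1, below the filter, was found in 2 of 120 Pvalb-like and 6 of 105 Sst-like nuclei, and Kcnb2 in 7 of 120 Pvalb-like and 8 of 105 Sst-like nuclei.

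The second contrast set SPN-like nuclei with reads of the dopamine receptor gene Drd1 but not Drd2 against those with Drd2 but not Drd1, the receptors that mark the direct and the indirect pathway of the striatum. It could be made in 7 vectors, where 0.122% of 6561 genes were called. Of the 5 genes only Kcnv1 passed the filter. It was not called by edgeR or by DESeq2 and its unadjusted p was not under 0.05. It averaged 24.5 ± 34.6 CPM in Drd1-only nuclei and 100 ± 95.03 CPM in Drd2-only nuclei (SD, n = 7), was higher in Drd1-only nuclei in 2 vectors and lower in 4, and had a log2 fold change of -1.35 with a standard error of 2.82 (unadjusted p = 0.636, adjusted p = 0.9996 by edgeR). The log2 fold change was 0.06 without AiE0387m, 0.04 without AiE0743m_3xC2 and 1.49 in the library series S40326 alone, so it had no stable direction. Pooled over all such nuclei it was found in 9 of 82 Drd1-only and 8 of 51 Drd2-only nuclei. Kcns3 was found in 0 of 82 Drd1-only and 0 of 51 Drd2-only nuclei.

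**Figure D4:**
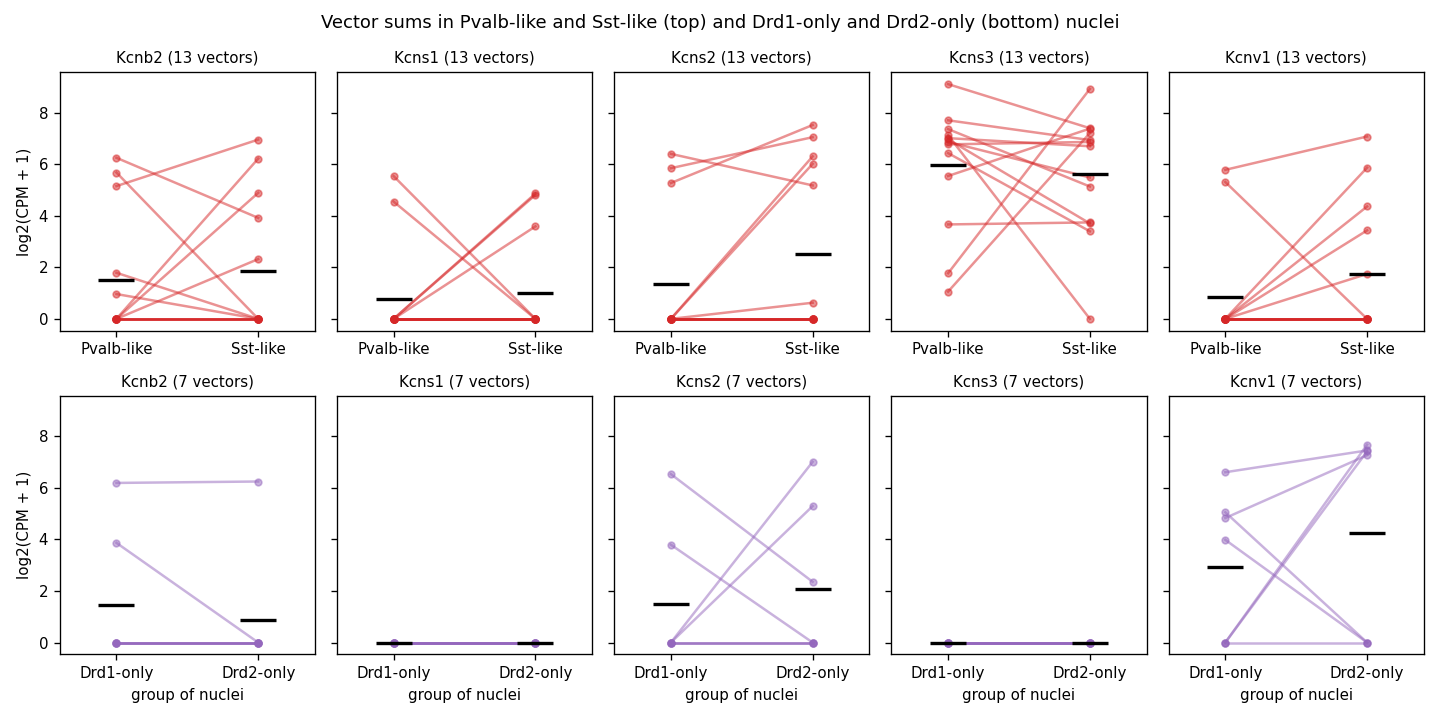
Vector sums of the 5 genes, as log2(CPM + 1), in Pvalb-like (left) and Sst-like (right) nuclei of 13 vectors, above, and in Drd1-only (left) and Drd2-only (right) nuclei of 7 vectors, below. Lines join the sums of a vector and black marks are means. Lines run in both directions for Kcns3 above and for Kcnv1 above and below, while Kcns3 is 0 in all sums below.

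Other genes of the Kv2 complex were read from 10 listed partners: the silent subunit genes Kcnf1, Kcng1, Kcng2, Kcng3, Kcng4 and Kcnv2, the auxiliary subunit gene Amigo1, Vapa and Vapb, whose proteins hold Kv2 clusters at contacts of the endoplasmic reticulum with the plasma membrane, and Stx1a, a syntaxin that binds Kv2. Between GABAergic-like and glutamatergic-like nuclei, of the 5 partners that passed the filter none rose and 1 fell by edgeR, in a contrast where 1.5% of 8711 genes were called higher and 1.45% lower, and DESeq2 called 1. Stx1a averaged 20.3 ± 21.4 CPM in GABAergic-like and 244 ± 173 CPM in glutamatergic-like nuclei (SD, n = 12, log2 fold change -4.93, standard error 1.09, adjusted p = 0.00824 by edgeR), lower in 12 of 12 vectors. Kcnf1, Amigo1, Vapa and Vapb did not pass, with adjusted p from 0.791 to 0.962. The median log2 fold change of the 5 partners was -0.73 and that of all genes 0.21.

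Between SPN-like and GABAergic-like nuclei, where 3.24% of 8958 genes were called higher and 4.47% lower, none of the 4 partners that passed the filter was called by edgeR, none had an unadjusted p under 0.05, and DESeq2 called 1, which was Stx1a. Stx1a averaged 17.5 ± 29.01 CPM in SPN-like and 31.1 ± 28.2 CPM in GABAergic-like nuclei (SD, n = 12), lower in 7 of 12 vectors. Amigo1, Vapa, Vapb and Stx1a had adjusted p from 0.548 to 0.882. Between non-neuronal and neuronal nuclei, where 2.02% of 9696 genes were called higher and 33.2% lower, DESeq2 called 3 of the 4 partners that passed and edgeR 2. Amigo1 and Stx1a fell, with Amigo1 at 4.93 ± 17.9 CPM in non-neuronal and 48.7 ± 32.6 CPM in neuronal nuclei, lower in 15 of 15 vectors (log2 fold change -8.91, standard error 1.62, adjusted p = 7.07e-05 by edgeR). The 2 means of Amigo1 lie closer together than this fitted fold change gives. The median log2 fold change of the 4 partners was -5.05 and that of all genes -2.77. Vapa, a gene of many cell types, stood at 150 ± 144 CPM in non-neuronal and 77.8 ± 41.2 CPM in neuronal nuclei (adjusted p = 0.836 by edgeR), and Vapb had an adjusted p of 0.0546.

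Most of the other silent genes were too sparse for the class contrasts, and their pooled levels are given as a description. Kcng1 was found in 20 of 161 SPN-like nuclei, at 40.2 CPM, and in 0 of 252 GABAergic-like nuclei, which allows a share of up to 1.19%, while glutamatergic-like nuclei had 11.1 CPM. Kcng4 was found in 10 of 252 GABAergic-like nuclei, at 10.7 CPM, and in 0 of 161 SPN-like nuclei, which allows a share of up to 1.86%. Kcng2 stood at 15.2 CPM (5.88 CPM without its top nucleus) and Kcnf1 at 43.9 CPM in glutamatergic-like nuclei. Kcng3 was under 1 CPM in all 5 classes, and Kcnv2 was listed at 0 in all 800 nuclei. In the Pvalb-like against Sst-like contrast, none of the 4 partners that passed was called by edgeR, 1 (Amigo1, 109 ± 77.4 CPM in Pvalb-like and 40.3 ± 52.8 CPM in Sst-like nuclei, adjusted p = 0.648) had an unadjusted p under 0.05, and DESeq2 called 1. In the Drd1-only against Drd2-only contrast, neither of the 2 that passed (Kcng1 and Vapa) was called by edgeR or DESeq2, and neither had an unadjusted p under 0.05.

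The 23 other voltage-gated potassium genes of the Kv1, Kv3, Kv4, Kv7 and EAG families give the setting. Of 17 that passed the filter between GABAergic-like and glutamatergic-like nuclei, 1 rose, Kcnc1, a Kv3 gene of fast-spiking neurons, at 577 ± 217 CPM in GABAergic-like and 85.6 ± 77.5 CPM in glutamatergic-like nuclei (adjusted p = 0.00155 by edgeR), and 1 fell, Kcnh3, at 3.29 ± 6.17 CPM in GABAergic-like and 87.0 ± 84.0 CPM in glutamatergic-like nuclei (adjusted p = 0.0177 by edgeR), against 1.5% of all genes called higher and 1.45% lower. DESeq2 called 6 of the 17. Of 16 between SPN-like and GABAergic-like nuclei, 3 rose and 3 fell, against 3.24% and 4.47% of all genes, and DESeq2 called 11. Those that rose were led by Kcnh4, at 152 ± 54.9 CPM in SPN-like and 0.843 ± 2.36 CPM in GABAergic-like nuclei, and Kcnh3, at 83.3 ± 75.2 CPM in SPN-like and 8.59 ± 15.96 CPM in GABAergic-like nuclei. Those that fell were led by Kcnc2, at 3.04 ± 5.37 CPM in SPN-like and 253 ± 139 CPM in GABAergic-like nuclei, and Kcnc1, at 31.6 ± 45.4 CPM in SPN-like and 544 ± 200.3 CPM in GABAergic-like nuclei. Of 16 between non-neuronal and neuronal nuclei none rose and 13 fell, against 33.2% of all genes called lower, led by Kcnc2 and Kcnq5, and DESeq2 called 15. Of 12 between Pvalb-like and Sst-like nuclei 2 rose, Kcnc1 at 1044 ± 233 CPM in Pvalb-like and 278 ± 186 CPM in Sst-like nuclei (adjusted p = 0.000431 by edgeR) and Kcnh7 at 351 ± 195 CPM in Pvalb-like and 122 ± 191 CPM in Sst-like nuclei (adjusted p = 0.0147 by edgeR), against 0.196% of all genes called higher, and DESeq2 called 5. Of 11 between Drd1-only and Drd2-only nuclei, where 0.122% of all genes were called, none was called by edgeR, 1 had an unadjusted p under 0.05, and DESeq2 called 2.

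Over the nuclei of at least 1000 genes, Kcns3 was lowest at 0 in AiE0410m, had a median of 41.4 and was highest at 175 CPM in AiE0401h. A single AiE0401h nucleus held 84.1% of the Kcns3 counts of that vector, which stood at 29.9 CPM without it, and AiE0452h was next at 113 CPM (91.1 CPM without its own top nucleus). Kcnv1 had a median of 32.3 CPM, was 0 in 3 vectors and was highest at 97.0 CPM in AiE0078h (64.3 CPM without its top nucleus). Kcnb2 had a median of 11.1 CPM and was highest at 80.9 CPM in hSyn1, but 1 hSyn1 nucleus held 69.1% of those counts. Without it hSyn1 stood at 26 CPM, below the 72.6 CPM of hI56i. Kcns1 had a median of 1.11 with the highest at 26.1 CPM in AiE0682h, and Kcns2 had a median of 9.60 with the highest at 53.8 CPM in AiE0600m.

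**Figure D5:**
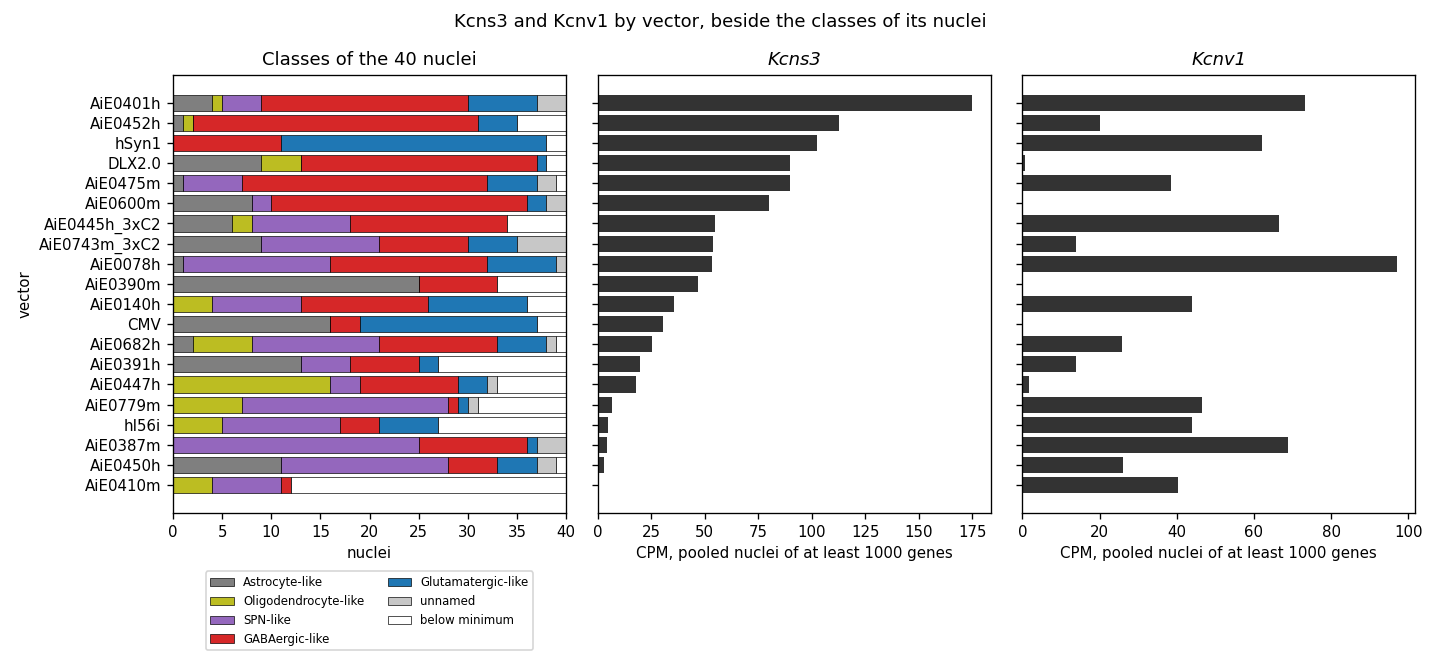
Classes of the 40 nuclei of each vector (left) and pooled CPM of Kcns3 (middle) and Kcnv1 (right) over its nuclei of at least 1000 genes, with vectors ordered by Kcns3. AiE0401h is highest in Kcns3 at 175 CPM, of which 1 nucleus holds 84.1% of the counts (29.9 CPM without it), and AiE0078h is highest in Kcnv1 at 97.0 CPM.

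The library series is a part of the library names, and hSyn1 lies wholly in the series S40323, so its vector and series cannot be told apart. Kcns3 in GABAergic-like nuclei stood at 275 CPM in S40323, 177 in S40324 and 125 CPM in S40326, and at 129 CPM in S40323, 167 in S40324 and 88.3 CPM in S40326 without the top nucleus of each, so the order of the first pair turns on 1 nucleus. It was under 4 CPM in glutamatergic-like nuclei of each series. Kcnv1 in glutamatergic-like nuclei stood at 71.7 CPM in S40323, 117 in S40324 and 158 CPM in S40326, and at 49.01 CPM in S40323, 76.6 in S40324 and 134 CPM in S40326 without the top nucleus of each. Kcnb2 in glutamatergic-like nuclei stood at 92.7 CPM in S40323, 46.8 in S40324 and 20.5 CPM in S40326, and at 29.5 CPM in S40323, 28.2 in S40324 and 10.1 CPM in S40326 without the top nucleus of each. Kcnv1 in GABAergic-like nuclei was at most 13.8 CPM in any series, so Kcns3 was higher and Kcnv1 lower in GABAergic-like than in glutamatergic-like nuclei of each series, with or without these nuclei.

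The genes whose pattern over 60 vector-by-class sums was most like that of each chosen gene were found by Pearson's r of log2(CPM + 1) among 12369 genes. For Kcns3 they were Gm12120 (r = 0.96), Kcnip1 (0.94), which encodes an auxiliary subunit of Kv4 channels, and Kcnmb2 (0.94), which encodes an auxiliary subunit of large-conductance calcium-activated potassium channels. All 3 averaged under 1 CPM in the sums of the other 4 classes. Gm12120 lies within Kcnip1 on the opposite strand of chromosome 11, and without strand their reads cannot be told apart. For Kcnv1 they were Gm49685 (0.73), 2900079G21Rik (0.72) and Klf10 (0.68), and for Kcnb2 Sphkap (0.65), C230057M02Rik (0.61) and Lnx1 (0.60). For Kcns2 the highest value was 0.60 with Srfbp1 and for Kcns1 0.57 with Tmc4, which in counts this sparse is no finding. These sums share vectors and depth, so r describes the table and no p is given.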

How the data were processed

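Reads of single nuclei had been made into libraries with SMART-Seq v4 from polyadenylated RNA and Nextera XT, without molecular identifiers or strand, per the labels' protocols. STAR 2.7.2a and mm10 are named in the submitters' processing notes. How reads were assigned to genes, with which annotation and with or without introns, is not given in the sources used here. Deposited values are whole-number counts per gene, as the authors made them, for 2501 nuclei, of which the 800 with labels were used and 1701 columns were not. The 32285 Ensembl IDs were matched to GENCODE M21, and 127 had no symbol.

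Nuclei with at least 1000 genes were clustered on 2000 variable genes and 30 principal components with scanpy 1.11.5 and Leiden resolution 1. The 39 listed genes (chosen genes, Kv2 partners and other voltage-gated potassium channel genes) were left out, and clusters were named from markers. No doublet caller was run, and, as alternatives chosen after seeing the data, nuclei over 6000 genes or the nucleus with the most counts were left out. CPM is counts divided by the total counts of the nucleus or sum. Classes were compared on counts summed per vector, for vectors with at least 3 nuclei of both groups, with vector as a block, filterByExpr, TMM and the quasi-likelihood test of edgeR 4.0.16 (R 4.3.3), adjusted over all genes tested. DESeq2 1.42.0, RLE normalization, no filter, no block, single library series and each vector left out were tried, as were other gene minimums, class calls and detection limits. Each contrast script was tested on simulated data. Intervals are exact Clopper-Pearson or Poisson ones at 95%, and a count of 0 allows up to 3 counts. Median depth was 260170 counts.

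Subclusters of SPN-like nuclei could not be named, so nuclei with reads of only 1 of Drd1 and Drd2 were compared instead of the planned clusters. The genes named are the 5 chosen genes, 10 Kv2 partners (another listed gene is not reported here), 23 other voltage-gated potassium channel genes and the 3 genes most like each chosen gene. The 5 genes and all lists were chosen with earlier results of these data known.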

Additional observations from a re-analysis of the deposited data

Results flagged for a closer look

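Counts of 3 of the 5 genes were found in nuclei that entered no comparison, and these nuclei have no control samples. In the unnamed cluster of 21 nuclei, led by Slc10a4 and Lhx8, Kcnb2 stood at 25.3 CPM in 2 nuclei, Kcns2 at 7.86 CPM in 1 and Kcnv1 at 22.2 CPM in 1. Among the 102 nuclei with fewer than 1000 genes, Kcns2 stood at 19.5 CPM, and all 479 counts came from 1 hI56i nucleus with 805 genes and 1958 CPM of Kcns2.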

How the results depend on the processing

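The number of genes called moved with the settings. GABAergic-like against glutamatergic-like nuclei gave 257 genes with edgeR, 1352 with DESeq2, 466 with every gene with at least 1 count, 57 in the library series S40326 alone and 183 to 315 with each vector left out. SPN-like against GABAergic-like nuclei gave 690, with 2470 by DESeq2, 1239 with every gene, 267 in S40326 and 568 to 705 with each vector left out. Non-neuronal against neuronal nuclei gave 3413, with 6432 by DESeq2, 1075 without the vector block, 227 in S40324, 2033 in S40326 and 2835 to 3965 with each vector left out. Pvalb-like against Sst-like nuclei gave 31 (15 higher, 16 lower), with 45 by RLE normalization (17 higher, 28 lower) and 595 by DESeq2 (337 higher, 258 lower). This contrast gave 127 with every gene, 21 with the largest cluster of each group alone, 11 in S40326 and 27 to 44 with each vector left out. Drd1-only against Drd2-only nuclei gave 8, with 347 by DESeq2 (306 higher, 41 lower) and 8 to 9 with each vector left out. A single series holds fewer vectors; the cause of the other shifts was not tested. RLE moved the median over all genes of the log2 fold change to -2.67 from -2.77 in non-neuronal against neuronal nuclei and to 0.55 from 0.71 in Drd1-only against Drd2-only nuclei.

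The class with the highest level was kept for 4 or 5 of the 5 genes under every alternative. Kcns2 was highest in GABAergic-like nuclei with a marker score per nucleus, in S40326 alone, with the mean CPM over nuclei, without hSyn1 and without CMV, and Kcnb2 was with a minimum of 2000 genes. The nucleus with the most Kcns2 counts was in no class, so leaving it out could not change the highest class of Kcns2. Without the top glutamatergic-like nucleus, the Kcns2 level of that class fell below the pooled GABAergic-like level, as given above. The vector with the highest level was kept for 3 of 5 genes with the mean CPM over nuclei. S40324 alone could not be fitted for SPN-like, Pvalb-like and Drd1-only contrasts, with at most 1 vector, and had no sums of GABAergic-like and glutamatergic-like nuclei. Every contrast was paired by vector, which is the block. For the numbers in the titles, no paired analysis was possible because they only count nuclei within a vector. Kcns1 had the fewest nuclei with a count, 21 of 800, and the part of depth in this was not tested.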

Other observations

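Some values concern small groups of nuclei and were singled out after they were seen. In glutamatergic-like nuclei of the CMV vector, Kcnb2 was found in 0 of 18 nuclei and Kcnv1 in 0 of 18, each of which allows a share of up to 16.7%. In glutamatergic-like nuclei of the hSyn1 vector, Kcnb2 was found in 5 of 27 nuclei and Kcnv1 in 7 of 27. The cluster of 7 glutamatergic-like nuclei led by Ccn1, Cd83 and Egr2 had Kcnb2 in 1 nucleus, beside its 382 CPM of Kcnv1.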
